A study of Caenorhabditis elegans with 2 samples.

Results

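The Rab, Arf and Arl genes are a set of 28 genes of Caenorhabditis elegans that encode small GTPases of membrane traffic. They were taken as all genes whose symbol starts with rab, arf or arl and that have at least 1 probe set assigned to that gene alone, leaving out rab-3. They number 19 rab, 3 arf and 6 arl genes with 48 probe sets, out of 17118 genes and 20766 probe sets of 1 gene on the array. The values come from 2 arrays of whole worms of the wild-type strain N2, both labelled as L4, the last larval stage. The control worms grew without nanotubes for 48 hr at 22 °C. The exposed worms had 500 μg/mL of a-SWCNT, single-walled carbon nanotubes that the labels describe as amide nanotubes, for the same 48 hr at 22 °C from the first larval stage. Both cultures came from a stock kept at 13 °C on agar with the bacterium OP50 as food, and were synchronised with bleach. Each group is 1 array, which limits the precision: no value carries an error between cultures or a p-value.

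Rab, Arf and Arl proteins are molecular switches. They bind GTP in the active state, when they sit on a membrane and recruit effectors such as tethers, coats and motor adaptors, and they leave that state when GTP is hydrolysed. Exchange factors load GTP and GTPase-activating proteins promote its hydrolysis. Rabs are held on membranes by prenyl groups and Arfs by a myristoyl group. Many members are linked to particular compartments: RAB-5 marks early endosomes, RAB-7 late endosomes and ARF-1 the Golgi. In the worm these genes are known for receptor recycling in the intestine, yolk uptake by oocytes, clearance of cell corpses and the transport of cilium components.

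The deposited signals differed in level between the arrays, with a trimmed mean of 211 in control and 84.3 in exposed worms, so the signals of exposed worms given here were multiplied by 2.50. A probe set counted as measured on an array at or above a signal of 56.7, the median of all worm signals, and lower signals were raised to that floor before log2 ratios (a-SWCNT over control) were formed. A value at the floor on 1 side is therefore a bound. The value of a gene is the mean log2 ratio of its measured probe sets. All 23 tissue markers that were looked up, for muscle, pharynx, intestine, neurons, hypodermis and germline, were measured. Of these markers 15 were below 0, beside 52.2% of all genes, with bli-1 of the adult cuticle lowest (-2.25) and vha-6 of the intestine highest (1.11). At least 2-fold lower were 5 of 23, beside 2.88% of all genes. They were bli-1, gld-1 and mex-5 of the germline, myo-2 of the pharynx and unc-54 of muscle. At least 2-fold higher was 1, vha-6, beside 1.42% of all genes. The muscle markers were all below 0 (-1.03 to -0.40) and the germline markers ran from -1.38 to 0.14. Those of the other tissues also lay on both sides of 0. They ran from -2.25 to 0.93 in hypodermis (3 of 4 above 0) and -1.30 to 0.42 in pharynx (1 of 3 above 0). The range was -0.10 to 1.11 in intestine (2 of 4 above 0) and -0.89 to 0.53 in neurons (1 of 4 above 0). The part of tissue makeup in the values of the GTPase genes was not tested. In RNA of whole animals, fewer cells of a type and less RNA per cell cannot be told apart. The signal ratio of the 3' to the 5' control probe set went from 14.3 in control to 23.1 in exposed worms for ubiquitin. It was lower in exposed worms for the other 3 controls, at 1.13 and 0.90 for actin, 0.78 and 0.69 for GAPDH and 2.41 and 1.96 for catalase.

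Most of the measured GTPase genes were slightly lower on the a-SWCNT array, and 1, rab-11.2, was lower by more than 2-fold. Of the 28 genes, 22 were measured on at least 1 array, 16 of them below 0 and 6 above. Their median log2 ratio was -0.24, beside -0.02 over all 9382 measured genes, of which 52.2% were below 0. At least 2-fold lower was 1 of 22 genes, or 4.55%, beside 2.88% of all genes. At least 2-fold higher were 0 of 22, beside 1.42% of all genes. At a ratio of 1.5-fold the counts were 4 lower (18.2%, with 11.6% of all genes) and 0 higher (8.04% of all genes). The 4 were rab-11.2, arf-1, rab-19 and arl-1. The counts at 2-fold are therefore close to those of the whole array, and no test of the shift is possible with 1 array per group.

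**Figure D1:**
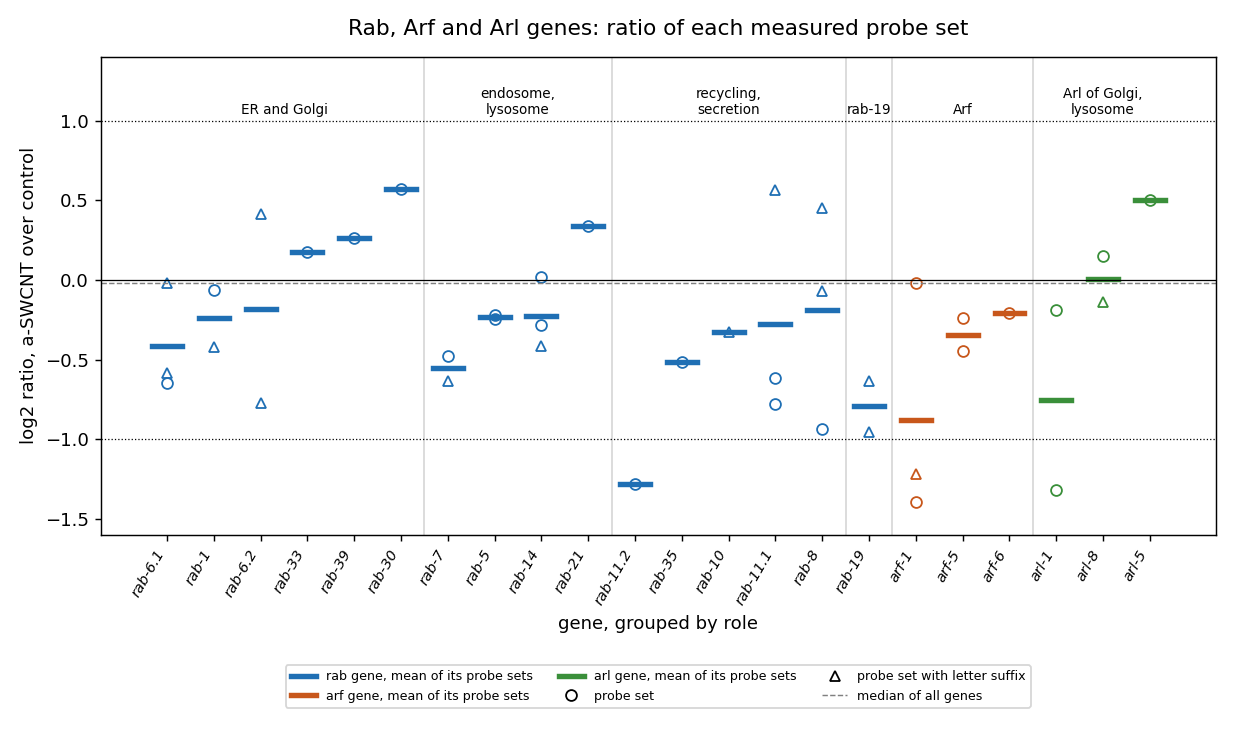
Log2 ratio, a-SWCNT over control (vertical axis), for each of the 22 measured Rab, Arf and Arl genes, grouped by role. Circles and triangles are probe sets, triangles being those of a type that may bind several transcripts, thick bars are the mean of a gene, the dashed line is the median of all genes (-0.02) and the dotted lines are 2-fold. The bar of rab-11.2 at -1.28 is the 1 gene value beyond 2-fold, and probe sets of arf-1, rab-8, rab-11.1 and rab-6.2 lie far apart.

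The 5 measured Rabs of recycling endosomes and of secretion all had a value below 0, beside 52.2% of all genes. A group of 5 is too small for its count to be read against that share. With the brightest probe set of each gene, rab-11.1 (0.56) and rab-8 (0.45) were above 0. The lowest member was rab-11.2, a close relative of rab-11.1, whose signal was 204 in control and 83.7 in exposed worms. That is 2.43-fold lower, or -1.28 in log2, and 1.06% of all measured genes had a value as low or lower. It has 1 probe set on the array, so no other probe set checks this value.

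Its relative rab-11.1, which encodes the Rab of recycling endosomes and is needed for exocytosis of cortical granules in the embryo, was read by 3 probe sets that did not go the same way. The signals were 255 in control and 166 in exposed worms in one probe set (-0.62) and 275 and 159.97 in another (-0.78). The third had 1222 and 1807 (0.56) and is of a type that may bind several similar transcripts. The mean of -0.28 thus lies between readings that differ by 1.35, and the direction for rab-11.1 rests on the probe set that is read.

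The same held for rab-8, whose product carries cargo to the plasma membrane and to cilia. Its 3 probe sets had 117 and 61.2 (-0.94), 238 and 226 (-0.07), and 449 and 612 (0.45) in control and exposed worms. The mean of these was -0.19, and their range of 1.39 was the widest of all members.

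The other genes of the recycling group had 1 measured probe set each. The gene rab-35, which acts in recycling of the yolk receptor in oocytes, had 194 in control and 136 in exposed worms, 1.43-fold lower. The gene rab-10, known for basolateral recycling in intestinal cells, had 768 and 612, 1.26-fold lower. Both probe sets of rab-37, a gene linked to secretory granules in mammals, were below the floor on both arrays, with at most 23.2 in control and 29.1 in exposed worms.

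The endosomal Rabs included some of the most even readings. The probe sets of rab-5, the switch of early endosomes, had 1514 in control and 1278 in exposed worms (-0.24) and 789 and 678 (-0.22). These readings differ by 0.03 in log2, the closest agreement among members. The gene rab-7, which drives the late steps towards the lysosome, was lower in both probe sets, with 160.2 and 115 (-0.48) and with 89.2 and 57.5 (-0.63). Its mean of -0.55 corresponds to 1.47-fold, and the lower reading on the a-SWCNT array lies just above the floor.

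For rab-14, which acts in maturation of phagosomes that hold cell corpses, the readings were 137 and 139 (0.02), 911 and 750.1 (-0.28), and 191 and 144 (-0.41), with a mean of -0.22. The gene rab-21, whose mammalian counterpart acts in early endosomes, stood on the other side of 0. It had 327 in control and 414 in exposed worms, 1.26-fold higher in its 1 probe set.

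The Rabs of the endoplasmic reticulum and Golgi were split, with 3 genes below and 3 above 0. The gene rab-1, required for traffic from the endoplasmic reticulum to the Golgi, had 2565 and 2456 (-0.06) in one probe set and 1215 and 908 (-0.42) in the other. The readings of rab-6.1, which encodes a Golgi Rab, were 325 and 321 (-0.02), 505 and 323 (-0.64), and 322 and 215 (-0.58), with a mean of -0.42. Those of rab-6.2, its relative with a known role in retrograde transport, went opposite ways, with 421 and 559.9 (0.41) and with 198 and 116 (-0.77). Both probe sets of rab-6.2 and 2 of the 3 of rab-6.1 are of the type that may bind several transcripts. Whether these relatives share signal was not tested, as probe sequences were not used.

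Each Golgi Rab above 0 rested on 1 measured probe set. The gene rab-30, with a counterpart on the mammalian Golgi, had the highest value of all members at 0.57, from 59.3 in control and 88.1 in exposed worms. The control signal lies just above the floor, and a further probe set below the floor on both arrays had 50.8 and 24.8, in the opposite direction. The gene rab-39 had 255 and 306 (0.26). The gene rab-33, linked in mammals to the Golgi and autophagy, was below the floor in control (54.3) and above it in exposed worms (64.1), at least 1.13-fold higher. The 1 probe set of rab-18, a gene tied in mammals to lipid droplets, had 12.4 and 16.2, below the floor on both arrays.

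The gene rab-19, which is given no role here, was the lowest member after rab-11.2 and arf-1. Its 2 probe sets had 138 in control and 71.4 in exposed worms (-0.95) and 293 and 189 (-0.63). Both were lower, at a mean of -0.79, or 1.73-fold, and both are of the type that may bind several transcripts.

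**Figure D2:**
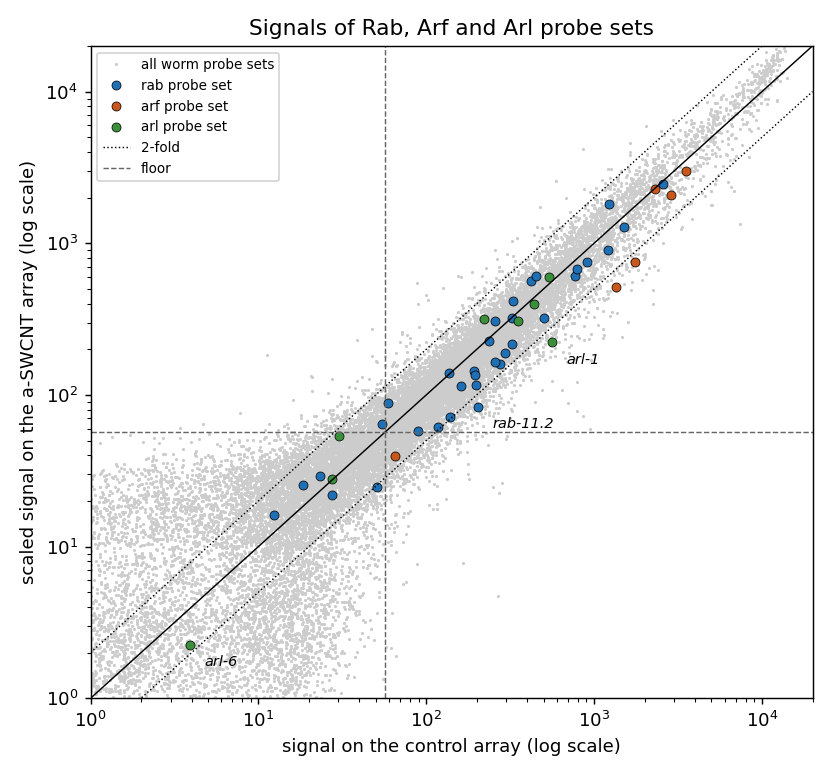
Signal of each Rab, Arf and Arl probe set on the control array (horizontal) and after scaling on the a-SWCNT array (vertical), both on log axes from 1, over all worm probe sets in grey. Solid and dotted lines mark equal signal and 2-fold, and dashed lines the floor of 56.7. A total of 38 probe sets lie above the floor on both arrays, and the 4 measured probe sets below the lower 2-fold line are 1 of rab-11.2, 1 of arl-1 and 2 of arf-1.

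All 3 Arf genes had a value below 0, beside 52.2% of all genes, and 3 genes are too few to be read against that share. The gene arf-1 encodes the Golgi Arf that recruits the COPI coat, and its probe sets gave different answers. They had 1350.4 in control and 513 in exposed worms (2.63-fold lower), 1745 and 749.9 (2.33-fold lower), and 2311 and 2282 (-0.02). The mean was -0.88, and the readings differ by 1.38. Genes with 3 measured probe sets had a median range of 0.68 with a 95th percentile of 1.57, so the spread in arf-1 is wide but within what the array shows elsewhere. The gene arf-5 had 2 agreeing probe sets, with 2856 and 2092 (-0.45) and 3544 and 2999 (-0.24). The gene arf-6, which acts at the plasma membrane and in recycling, had 65.4 in control and 39.8, below the floor, in exposed worms, at least 1.15-fold lower.

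Of the 6 Arl genes, 3 were measured and they did not share a direction. The gene arl-1, whose product brings golgins to the trans-Golgi, had 558 in control and 224 in exposed worms in one probe set (2.50-fold lower) and 349.6 and 306 in the other (-0.19). The mean of -0.76 rests on the first of these. The gene arl-8, which couples lysosomes and synaptic vesicle precursors to motors, was level, with 541 and 599.5 (0.15) and 439 and 399 (-0.14) and a mean of 0.00. The gene arl-5, a trans-Golgi Arl in mammals, had 222 and 315, 1.42-fold higher in its 1 probe set.

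The 4 genes grouped under cilia, the sensory organelles of a subset of neurons, were all below the floor on both arrays. The gene arl-13 had 30.4 in control and 53.3 in exposed worms, arl-3 had 27.4 and 28.02, arl-6 had 3.90 and 2.25 and rab-28 had 27.3 and 21.8. No ratio is given for these genes or for rab-18 and rab-37, which makes 6 members with no value.

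Across the set, agreement between probe sets was the guide to error within the arrays. The 13 members with more than 1 measured probe set include 8 with all readings below 0, and the other 5 had readings on both sides of 0. Members with 2 probe sets differed by a median of 0.30 (n = 8) and those with 3 by a median of 1.35 (n = 5), beside 0.42 over 1625 genes and 0.68 over 176 genes of the array. Of the 40 measured probe sets of members, 30 were below 0, beside 53.1% of all 11469 measured probe sets of 1 gene. At least 2-fold lower were 4 of 40 (10%, beside 4.32% of all) and at least 2-fold higher 0 (1.3% of all). The 4 belong to 3 genes, and arf-1 gives 2 of them, so they are not independent readings. The 15 measured probe sets of the type that may bind several transcripts had a median of -0.41 and the 25 others one of -0.24.

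The scaling of the arrays set the level of every ratio, so the members are also given relative to the median of all genes. With the scaling used, the members' median lay below that of all genes by 0.21. The other single-factor scalings move all genes together and can change this difference only through the floor. It was 0.21, 0.22 and 0.23 with equal medians, 75th percentiles and hybridisation controls. As deposited, where the floor was 34.7, the members' median lay below that of all genes by 0.40. Quantile normalisation and loess centring, which do not apply 1 factor, put the members' median below that of all genes by 0.29 and 0.28. The count at 2-fold moved with the level of the whole array. With equal hybridisation controls 4 of 22 members were at least 2-fold lower, beside 7.2% of all genes, and the median of all genes was -0.28. In the values as deposited 17 were lower, beside 61.9% of all genes, and that median was -1.16.

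**Figure D3:**
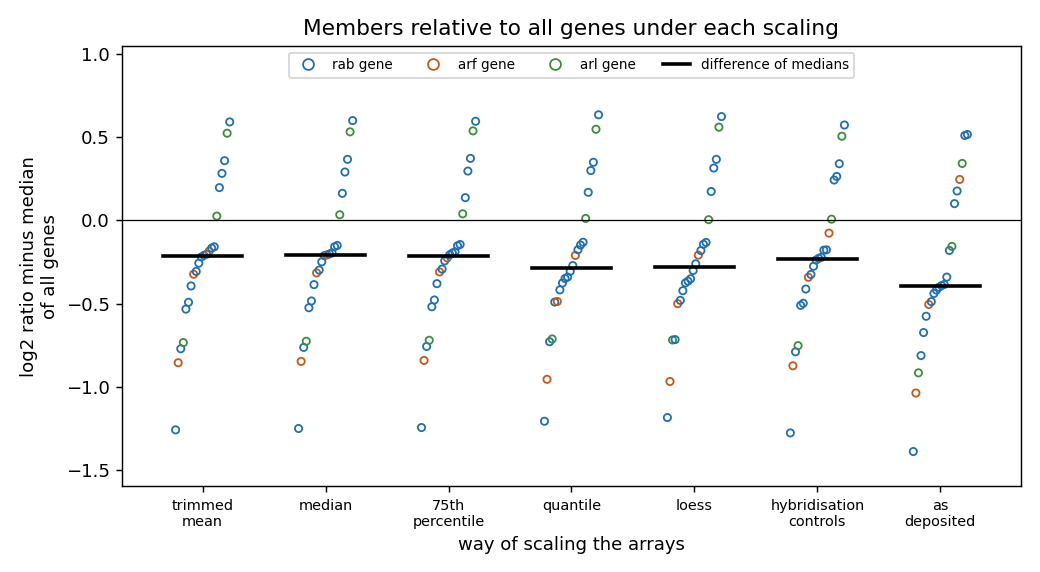
Log2 ratio of each measured Rab, Arf and Arl gene minus the median of all genes (vertical axis) under 7 ways of scaling the arrays (horizontal axis). Points are genes and black bars the members' median minus that of all genes, at -0.21 with the trimmed mean, -0.29 after quantile normalisation and -0.28 after loess centring. In the other scalings 1 factor moves all genes together, so that a likeness between them is built in apart from genes at the floor. With the values as deposited the bar lies at -0.40, a difference that comes through the floor.

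The genes of proteins that act on or together with these GTPases had a median log2 ratio nearer to that of all genes. Over 9 lists of regulators and partners, 67 measured genes had a median of -0.08, and 38 were below 0, beside 52.2% of all genes. At 2-fold, 1 gene was higher and 1 was lower, beside 1.42% and 2.88% of all genes. Single lists, of 2 to 14 measured genes, are too small for their counts to be read against these shares. The list medians lay between -0.16 and 0.15. Escort, recycling and prenylation factors, which deliver Rabs to membranes, had 0 of 4 genes beyond 2-fold, from rep-1 (-0.19) to M57.2 (0.09). The genes listed as Rab exchange factors had 0 of 14 beyond 2-fold at a median of -0.15. Among those measured on both arrays flcn-1 (-0.47) was lowest and rei-1 (0.52), an exchange factor for RAB-11.1, highest. Whether flcn-1 acts as an exchange factor was not tested.

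Among the Rab GTPase-activating proteins, 1 of 13 genes was at least 2-fold lower. This was tbc-7, which had 191 in control and 76.99 in exposed worms (-1.31), and tbc-16 (0.50) was highest. The value of tbc-7 rests on 1 probe set of the type that may bind several transcripts, and it has no value with the floor at the 75th percentile. Among 8 Rab effectors, cccp-1, which acts with RAB-2 in the formation of dense-core vesicles, was the 1 gene at least 2-fold higher, with 90.7 and 214 (1.24). That value rests on 1 probe set of the type that may bind several transcripts. Its other probe set (34.5 in control, 7.36 in exposed worms) enters with no floor and with the floor at the 25th percentile. The means there were -0.49 and 0.066. With the floor at the 75th percentile, which lies above the control signal of 90.7, the value was 0.12. The effector eea-1, a tether of early endosomes, had -0.56.

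Tethers of the HOPS and CORVET complexes, which act with RAB-7 and RAB-5, ran from vps-33.1 (-0.31) to vps-16 (0.56) among those measured on both arrays. Arf exchange factors had 0 of 3 genes beyond 2-fold (efa-6 at -0.19, grp-1 at 0.25), and Arf GTPase-activating proteins had cnt-2 at 0.05 and git-1 at 0.24. The COPI coat, which ARF-1 recruits, had 3 of 7 genes below 0, from copb-2 with 455 in control and 237 in exposed worms (-0.94) to copg-1 (0.38). Partners of Arl proteins had 0 of 10 genes beyond 2-fold, from blos-2 (-0.73) to blos-7 (0.55), both of a complex that works with ARL-8 on lysosomes.

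The 4 measured relatives that carry other names, among them unc-108, which encodes RAB-2 (0.02), and aex-6, which encodes RAB-27 (-0.12), had a median of -0.05 and 0 genes beyond 2-fold. Their probe sets mostly disagreed, with -0.38, 0.06 and 0.39 for unc-108, -0.60 and 0.37 for aex-6 and -0.53 and 0.35 for sar-1. The values near 0 of these genes are thus means of readings on both sides of 0. The gene evl-20 had 1 probe set (-0.01). Whether this or the other lists differ from the Rab, Arf and Arl genes was not tested.

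**Figure D4:**
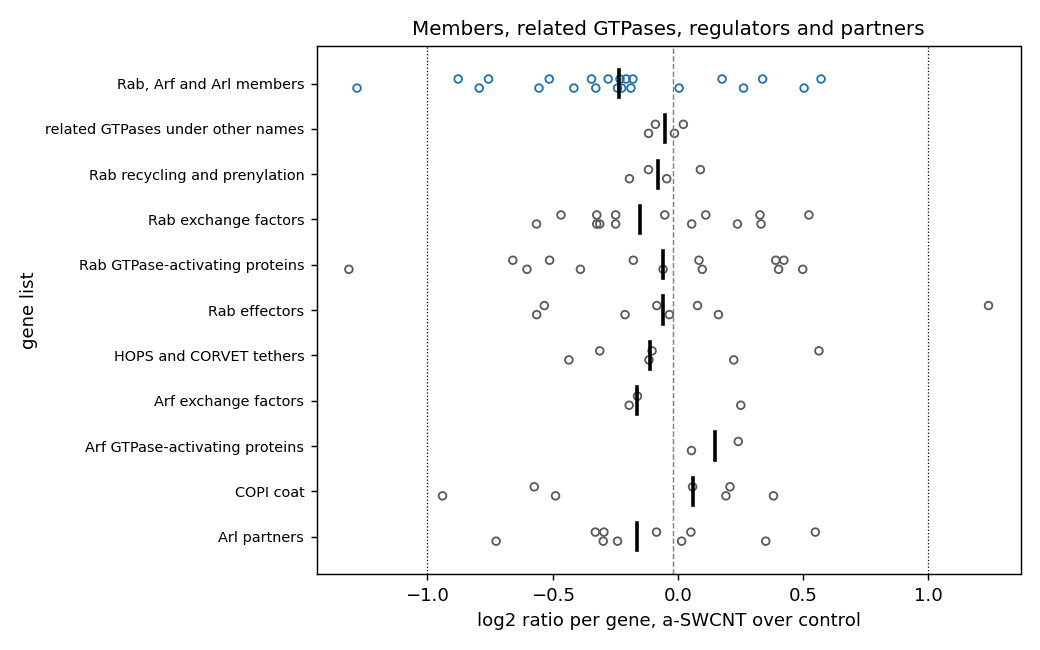
Log2 ratio per gene (horizontal axis) for the 22 measured Rab, Arf and Arl genes in blue and for 10 lists of other genes in grey. Black bars are medians, the dashed line is the median of all genes (-0.02) and dotted lines mark 2-fold. The bar of the members lies at -0.24 and those of the other lists between -0.16 and 0.15.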

How the data were processed

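The deposited table holds a linear signal intensity for each probe set and array, made with MAS5 per the submitters' processing notes. Its version, scaling target and detection calls are not given in the sources used here. Labelled cRNA came from 6 ug of total RNA, per the labels. The 22625 probe sets include 77 controls of the manufacturer. The a-SWCNT array was scaled to the control array by trimmed means (2% of values cut at either end), the floor was the pooled median, and no p-value was computed. Genes came from the platform's annotation, and all 28 members were found by identifier in a table of the WBcel235 assembly, with 0 differing symbols. A probe set shared by arl-7 and another gene was left out. Coordinates and probe sequences were not used. Members, roles and lists were chosen with earlier results of these data known. Named from each list are its highest and lowest gene measured on both arrays and all genes beyond 2-fold. The calculation (Python 3.11.15, statsmodels 0.14.6) was tested on simulated data. The simulation gave all probe sets of a gene the same change and scored changed genes only well above the floor. It therefore does not cover probe sets that disagree or values near the floor. Alternatives were 6 other scalings, other floors, thresholds of 1.5-fold and 3-fold, measurement on both arrays, removal of probe sets with a letter suffix and the brightest probe set of a gene. One list drawn up for comparison is not reported here.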

Additional observations from a re-analysis of the deposited data

How the results depend on the processing

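The count of members at least 2-fold higher was 0 under all alternatives run. The count at least 2-fold lower, 1 in the values given, was 4 with equal hybridisation controls (7.20% of all genes), 17 as deposited (61.9%), 2 with the brightest probe set of each gene (rab-11.2 and arl-1, with 3.47% of all genes), 4 at 1.5-fold (11.6%), 0 at 3-fold (0.39%) and 0 with the floor at the 75th percentile (2.10%), where rab-11.2 lies below the floor on the a-SWCNT array and at the edge of it in control (-0.04). The members' median was -1.56 as deposited and otherwise between -0.51 (equal hybridisation controls) and -0.12 (equal 75th percentiles). An alternative chosen after the data were seen, with probe sets measured on both arrays and no letter suffix, is within that range. The called value of cccp-1 was -0.084 as deposited, -0.49 with no floor, 0.066 and 0.12 with floors at the 25th and 75th percentile and 0.97 with equal hybridisation controls, each short of 2-fold. It has no value without letter-suffix probe sets, and neither has tbc-7. Outside the values as deposited, 13 members were below 0 and 2 above 0 in each of the 11 alternatives that gave them a value. Of these, 8 and 2 had a value in all 11. The other 7 members changed sign (arl-8, rab-11.1, rab-30, rab-33, rab-39, rab-6.2, rab-8). With the brightest probe set, arf-1 was -0.02. No paired analysis was possible because each group is 1 array. Depth in the sense of counts does not apply, and signals near the floor limit rab-30, rab-33, arf-6 and the 6 members with no value.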
